A study of Mus musculus with 24 samples.

Results

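The data described here are the RNA levels of 9 genes in mouse islet cells. They are the 3 peroxisome proliferator-activated receptors (Ppara, Ppard, Pparg), the 3 retinoid X receptors (Rxra, Rxrb, Rxrg), both PGC-1 coactivators (Ppargc1a, Ppargc1b) and Angptl4. The genes were taken by symbol from a table of 41549 genes, and all 9 were found in it. The filter on low counts passed 8 of them, and Rxrg was not tested.

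PPARs are nuclear receptors that are activated by fatty acids and their derivatives. Each PPAR binds DNA as a pair with an RXR, usually at a repeat of the hexamer AGGTCA with 1 base between the copies (a DR1 element), and it recruits coactivators or corepressors there. PGC-1 proteins are coactivators without DNA binding of their own that raise the output of PPARs, of estrogen-related receptors and of nuclear respiratory factors. Angptl4 encodes a secreted inhibitor of lipoprotein lipase and is a widely used reporter of PPAR activity.

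Dispersed islet cells of wild type mice had been transfected with 50 pmol of a control (Ctr) or of an αGlu antisense oligonucleotide directed at the 5′ fragment of tRNA Glu(CTC). They were then kept for 48 h in 0.5 mM palmitate (PA) complexed with bovine serum albumin (BSA), or in 0.75% BSA alone. There were 24 stranded mRNA libraries, 6 for every combination of an oligonucleotide (Ctr or αGlu) with a medium (BSA or PA), with 3 libraries of every group in batch 1 (S1 to S12) and 3 in batch 2 (S13 to S24). All groups shared the wild type genotype, the transfection and the serum-poor medium, and none was left without an oligonucleotide. The methods give primary cells of both sexes and mice of 12 to 14 weeks, without tying an age or a sex to a library, and the labels do not say what a batch is. Per the study's reporting summary, the groups of a replicate were made from cells of 1 animal or passage, but which libraries belong together is not named, so they were compared as unpaired and differences between preparations stay in the spread that the p-values measure.

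The αGlu oligonucleotide and the stretch it is listed against are shown because they define the comparison of Ctr with αGlu cells. Capitals mark the bases of the target that pair with the oligonucleotide, which are its bases 2 to 21.

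αGlu oligonucleotide: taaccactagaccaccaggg
listed target: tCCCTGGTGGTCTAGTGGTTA

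Library totals ran from 18214719 to 35001979 counts on exons. The 8 beta cell markers summed to between 83668 and 151420 CPM (counts scaled to the size of the library) in every library, so the islet label and the markers went together. The marker lists of the other cell types are given after the results of the members.

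In GRCm38 all of these genes lie on autosomes. Pparg spans chr6:115360951-115490399 on the plus strand, Rxra spans chr2:27676440-27762957 on the plus strand, and Ppargc1a spans chr5:51454250-51567726 on the minus strand. Angptl4 (chr17:33773750-33781830, minus strand), Ppard (chr17:28232700-28301474, plus strand) and Rxrb (chr17:34031812-34038399, plus strand) share a chromosome. Ppara lies at chr15:85734983-85802819, Ppargc1b at chr18:61298136-61400431 and Rxrg at chr1:167598384-167639623. Annotated genes overlap Pparg (the antisense Gm44079), Ppargc1a and Ppargc1b, and all 7 of them had 0 counts in every library. How the counting treated strand is not given in the sources used here.

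RefSeq start windows (GRCm38.p6) were found for 7 of the 9 genes, 12 windows in all. Angptl4 and Ppargc1b had no window, so no sequence of these 2 genes was searched. The 250 bases before each start were searched on both strands for AGGTCA, the half-site of PPAR and RXR, and for the DR1, that is 2 copies of AGGTCA spaced by 1 base. The half-site was found in 14.02% of all 32851 windows and the DR1 in 0.0335%. No window of the 7 searched genes held the DR1. An exact DR1 is so rare over all windows that its absence from 12 of them says nothing about these genes. A half-site was present in 2 of the 3 Pparg windows, in 1 of 2 Rxra windows and in 1 of 2 Rxrg windows, which is a description and not evidence of binding. The last 30 bases before both Pparg starts that hold it, the 250 bases before the second Rxra start and the 249 bases before the Ppargc1a start are shown because these genes moved with PA, with the half-sites in capitals. Both Pparg stretches and the Rxra stretch lie inside the annotated spans of their genes. Annotated exons cover 193 of the 250 bases before Pparg start 1 and 57 of those before start 2. TGACCT is AGGTCA read on the opposite strand, and the Ppargc1a window held none.

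Pparg start 1 (chr6:115361114-115361143, plus strand): tcAGGTCAgagtcgccccgggccacgcggc
Pparg start 2 (chr6:115362319-115362348, plus strand): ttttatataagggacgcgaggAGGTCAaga
Rxra start 2 (chr2:27709042-27709291, plus strand): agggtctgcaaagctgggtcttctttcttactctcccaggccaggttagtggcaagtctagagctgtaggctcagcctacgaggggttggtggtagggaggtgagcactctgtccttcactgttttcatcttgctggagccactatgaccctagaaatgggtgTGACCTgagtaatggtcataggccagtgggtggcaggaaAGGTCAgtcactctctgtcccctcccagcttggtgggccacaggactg
Ppargc1a (chr5:51567727-51567975, minus strand): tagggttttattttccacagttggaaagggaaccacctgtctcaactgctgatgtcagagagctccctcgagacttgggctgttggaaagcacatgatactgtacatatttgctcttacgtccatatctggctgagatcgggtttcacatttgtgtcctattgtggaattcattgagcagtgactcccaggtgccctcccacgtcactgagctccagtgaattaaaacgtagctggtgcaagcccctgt

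To compare the genes with each other, the deposited TPM values were used, which are scaled per transcript length. In Ctr BSA the order of median TPM was Rxrb, Rxra, Ppard, Pparg, Ppargc1a, Ppargc1b, Ppara, Angptl4 and Rxrg. Rxrb (median 25.4 TPM, range 18.9 to 26.9) and Rxra (25.2 TPM, 21.6 to 30.7) overlapped, and Rxrb was the higher in 1 of the 6 libraries although its median was higher. Only the order of their medians turned when RPKM replaced TPM, so the medians cannot be ranked. Within a library both units keep the order of the genes. Ppard (14.5 TPM, 13.3 to 16.04) lay below both without overlap, and Pparg (12.1 TPM, 9.62 to 14.06) lay next.

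The other genes were scarce. Ppargc1a had a median of 1.62 TPM (1.10 to 2.21) and Ppargc1b of 1.51 TPM (1.05 to 2.01), and their ranges overlapped. Ppara, the PPAR of liver, heart and muscle fatty acid oxidation, had a median of 0.875 TPM (0.281 to 1.44). Angptl4 had a median of 0.343 TPM (0.186 to 0.935) in Ctr BSA, and its range overlapped that of Ppara. Rxrg, the RXR of muscle and brain, had 8 counts over all 24 libraries, in 4 libraries, with at most 3 in one of them. A count of 0 allows up to 3 counts, or 0.0857 to 0.165 CPM for these library sizes, and no level can be given for Rxrg.

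**Figure D1:**
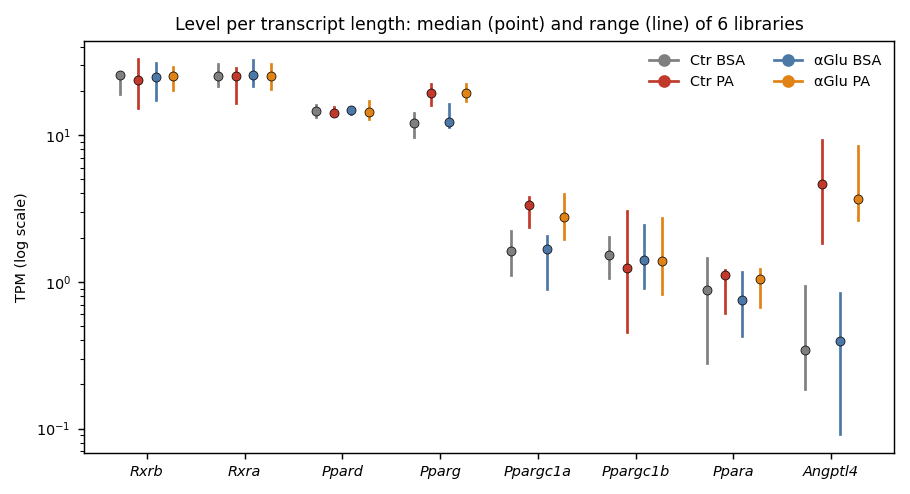
Level of 8 genes in TPM (log scale, scaled per transcript length) in the 4 groups, with points at the median and lines over the range of 6 libraries. In BSA the Pparg median lies below that of Ppard, at 12.1 against 14.5 TPM in Ctr cells, and in PA it lies above it, at 19.3 against 14.2 TPM. Rxrg is left out because most of its libraries had 0 counts.

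Among the receptors the order of Ppard and Pparg turned between BSA and PA. Ppard was above Pparg in 6 of 6 libraries of Ctr BSA and in 5 of 6 of αGlu BSA, though the ranges overlapped in both groups. In Ctr PA and αGlu PA, Pparg was above Ppard in 6 of 6 libraries and the ranges did not overlap. Pparg made up a median 43.4% of the summed TPM of the PPARs in Ctr BSA (40.1% to 47.97%) and 55.2% in Ctr PA (52.03% to 59.5%). In αGlu cells its share was 45.1% (41.7% to 50.4%) and 56.1% (51.2% to 59.9%). The summed PPAR TPM had a median of 27.97 in Ctr BSA and 34.3 in Ctr PA, whereas the summed RXR TPM was 50.5 and 49.2.

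The first comparison asked how these genes respond to PA in Ctr cells. Angptl4, Pparg and Ppargc1a rose and Rxra fell, while Ppara, Ppard, Rxrb and Ppargc1b did not pass the test. That is 4 of 8 tested genes called at an adjusted p below 0.05 (edgeR quasi-likelihood test, adjusted over all genes), where 29.98% of all 15916 tested genes were called. By direction the counts were 3 higher against 15.5% of all genes and 1 lower against 14.5%. With the rule of an absolute log2 fold change above 1 and an unadjusted edgeR p below 0.05, 1 of 8 genes (Angptl4) was called, against 5.91% of all genes.

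Angptl4 had the largest log2 fold change of all 15916 tested genes in Ctr cells. Its values in Ctr BSA ran from 0.237 to 1.13 TMM-scaled CPM (median 0.430), and in Ctr PA from 2.58 to 11.7 CPM (median 5.58). The groups did not overlap, and the highest PA library, S7, was well above the next at 5.90 CPM. The log2 fold change was 3.37 (95% interval 2.60 to 4.14, edgeR adjusted p = 3.77e-07), and it was 3.18 without S7. It was 3.01 in batch 1 alone and 3.99 in batch 2 alone. Counts in Ctr BSA were few, 6 to 41 a library, so the fold rests on a low denominator.

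Pparg, the PPAR that drives fat cell formation and is the target of thiazolidinediones, ran from 10.5 to 14.5 CPM (median 13.4) in Ctr BSA and from 17.6 to 22.2 CPM (median 20.002) in Ctr PA. Every PA library was above every BSA library. The log2 fold change was 0.62 (0.46 to 0.79, edgeR adjusted p = 4.09e-06), with 0.61 in batch 1 alone and 0.63 in batch 2 alone.

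Ppargc1a (PGC-1α), a coactivator of mitochondrial biogenesis and fatty acid oxidation, ran from 2.76 to 4.95 CPM (median 3.90) in Ctr BSA and from 5.36 to 9.31 CPM (median 7.49) in Ctr PA. Again the groups did not overlap. The log2 fold change was 0.93 (0.57 to 1.28, edgeR adjusted p = 2.60e-04), with 0.85 and 1.00 in batch 1 and batch 2 alone. Non-overlap with the PA group higher was seen for these 3 genes, compared with 2.97% of all tested genes.

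Rxra, the common partner of many nuclear receptors, fell by 0.20 on the log2 scale (interval -0.31 to -0.09, edgeR adjusted p = 0.00645). Its CPM ran from 50.5 to 71.3 (median 62.5) in Ctr BSA and from 40.95 to 61.8 (median 53.9) in Ctr PA, and the groups overlapped. Within batch 1, the 3 Ctr BSA libraries (65.8 to 71.3 CPM) lay above the 3 Ctr PA libraries (57.1 to 61.8 CPM), and in batch 2 they ran from 50.5 to 59.2 against 40.95 to 50.7. The decrease had the same size within each batch alone, -0.20 and -0.21, but did not pass the test there (edgeR adjusted p = 0.0734 and 0.156), nor without the batch term (edgeR adjusted p = 0.211).

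**Figure D2:**
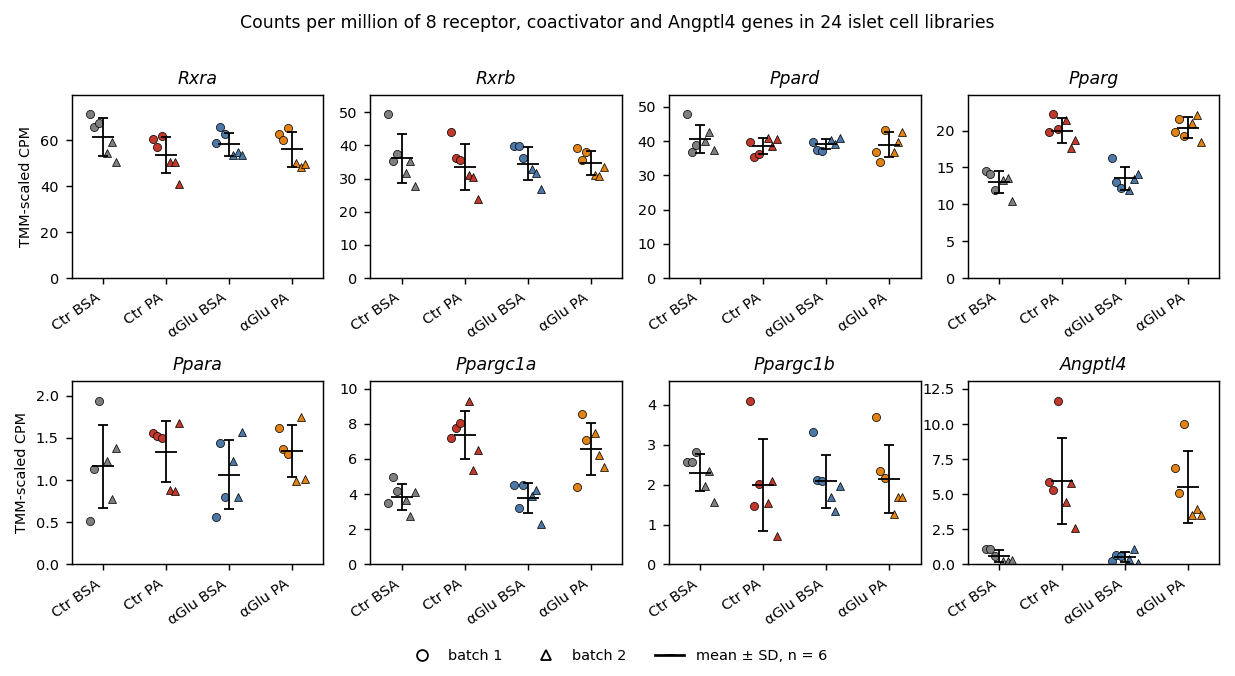
TMM-scaled CPM of 8 genes in each of 24 libraries by group, with circles for batch 1, triangles for batch 2 and black bars for the mean and SD of 6 libraries. Every PA library lies above every BSA library of the same cells for Pparg and Angptl4, and Rxra and Rxrb sit lower in batch 2 than in batch 1.

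The 4 genes that were not called had intervals that bound the change. Ppard, the widely expressed PPAR, had a log2 fold change of -0.07 (-0.20 to 0.06), with a median of 39.3 CPM in Ctr BSA and 39.1 CPM in Ctr PA. Rxrb had -0.11 (-0.28 to 0.07). Ppara, at a median of 35 counts a library in Ctr BSA, had 0.18 with a wide interval (-0.43 to 0.79), and Ppargc1b (PGC-1β) had -0.25 (-0.76 to 0.27). For Ppara and Ppargc1b no change was detectable at this depth.

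In αGlu cells the same 3 genes rose with PA, that is 3 of 8 tested genes against 28.5% of all genes called and 14.4% called as higher. With the fold rule 1 of 8 genes, again Angptl4, was called, against 5.57% of all genes. Angptl4 ran from 0.128 to 1.11 CPM (median 0.486) in αGlu BSA and from 3.55 to 10.03 CPM (median 4.51) in αGlu PA, without overlap. Its log2 fold change was 3.29 (2.52 to 4.06, edgeR adjusted p = 6.42e-07), the second largest of all tested genes, with 3.83 in batch 1 alone and 2.73 in batch 2 alone.

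Pparg ran from 11.99 to 16.3 CPM (median 13.3) in αGlu BSA and from 18.5 to 22.1 CPM (median 20.4) in αGlu PA, again without overlap. Its log2 fold change was 0.59 (0.43 to 0.76, edgeR adjusted p = 7.08e-06). Non-overlap with the PA group higher was seen for 4.17% of all tested genes. Ppargc1a ran from 2.30 to 4.55 CPM (median 4.06) in αGlu BSA and from 4.41 to 8.58 CPM (median 6.67) in αGlu PA. These groups overlapped through PA library S12, and the log2 fold change was 0.80 (0.44 to 1.16, edgeR adjusted p = 0.00114). In batch 1 alone it was 0.71 and did not pass the test (edgeR adjusted p = 0.0771).

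The other members did not pass the test in αGlu cells. Rxra had a log2 fold change of -0.06 (-0.17 to 0.05), with medians of 56.98 CPM in αGlu BSA and 55.1 CPM in αGlu PA. Rxrb had 0.01 (-0.16 to 0.19), Ppard -0.01 (-0.14 to 0.13), Ppara 0.33 (-0.28 to 0.94) and Ppargc1b 0.01 (-0.50 to 0.53). That Rxra was called in Ctr cells and not in αGlu cells does not show a difference between them, which was tested directly.

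The comparison of αGlu with Ctr cells asked whether blocking the tRNA fragment altered these genes. In BSA 0 of 8 tested genes were called by edgeR, as were 0% of all genes, with 0 members at an unadjusted p below 0.05 and 0 by DESeq2. Of all 15916 tested genes 461 had an unadjusted edgeR p below 0.05, fewer than chance alone would give at that threshold. DESeq2 called 8. In PA the counts for the members were again 0, 0 and 0. Of the 15916 genes 538 were below an unadjusted edgeR p of 0.05, again fewer than chance alone would give, and DESeq2 called 30. For the difference between the PA responses of αGlu and Ctr cells, 0 members were called by edgeR and 0 by DESeq2. There were 0 members at an unadjusted edgeR p below 0.05. Over all genes edgeR called 0% and DESeq2 called 0. An unadjusted edgeR p below 0.05 was reached by 332 of the 15916 genes, also fewer than chance alone would give.

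The intervals state how large an effect could have been missed. In BSA the αGlu minus Ctr log2 fold change was 0.06 for Pparg (-0.11 to 0.23) and -0.07 for Rxra (-0.18 to 0.04). For Angptl4 it was -0.06, with an interval from -0.92 to 0.81. The intervals of Ppara (-0.75 to 0.47) and Ppargc1b (-0.67 to 0.36) were also wide. In PA the log2 fold change was 0.03 for Pparg (-0.14 to 0.19), -0.17 for Ppargc1a (-0.51 to 0.18) and -0.14 for Angptl4 (-0.78 to 0.51). There the interval ran from -0.59 to 0.61 for Ppara and from -0.40 to 0.62 for Ppargc1b. The difference between both PA responses was -0.03 for Pparg (-0.27 to 0.21), -0.13 for Ppargc1a (-0.63 to 0.37) and 0.14 for Rxra (-0.02 to 0.29, edgeR adjusted p = 0.999). For Angptl4 it was -0.08 with an interval from -1.17 to 1.01. The interval of this difference ran from -0.71 to 1.01 for Ppara and from -0.46 to 0.99 for Ppargc1b.

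For Angptl4 in BSA, the αGlu against Ctr log2 fold change was -0.87 in batch 1 alone and 1.03 in batch 2 alone, and neither passed the test. The difference between batches in that effect was not tested.

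**Figure D3:**
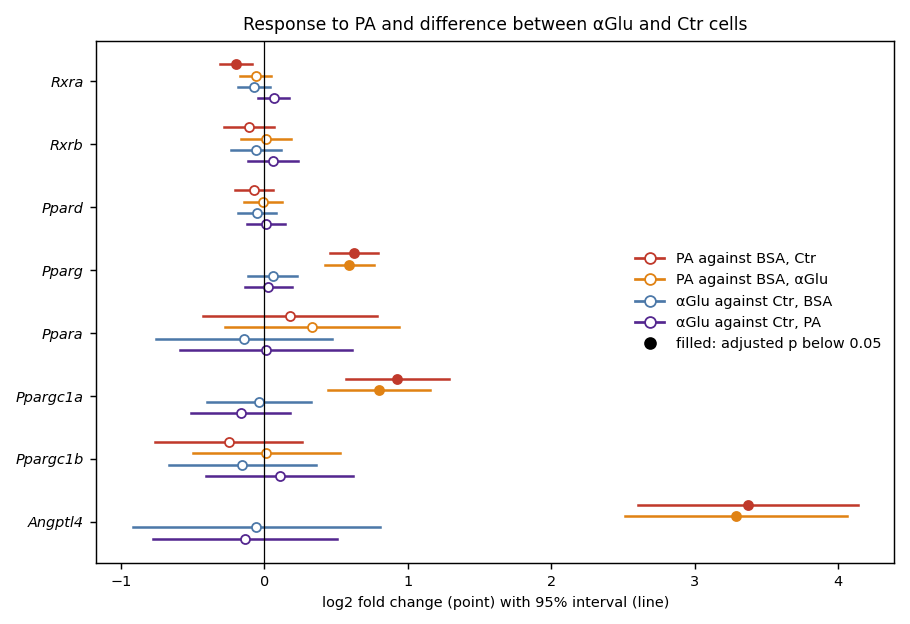
Log2 fold change (points) with its 95% interval (lines) of 8 genes in 4 comparisons, with filled points for an adjusted p below 0.05. Angptl4, Pparg and Ppargc1a lie to the right of 0 in both PA comparisons, Rxra lies to the left in Ctr cells (-0.20), and every αGlu against Ctr interval crosses 0.

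The 2 batches differed in some of these genes. Rxra, Rxrb, Ppargc1b and Angptl4 were lower in batch 2, that is 4 of 8 tested genes, where 51.5% of all genes were called in either direction and 25.4% were lower. None of the 8 passed the fold rule between batches, which 6.38% of all genes did. Rxra was 63.3 ± 3.99 CPM (SD, n = 12) in batch 1 and 51.4 ± 4.43 CPM in batch 2, with a log2 fold change of -0.30 (edgeR adjusted p = 2.75e-07). Rxrb was 38.9 ± 4.15 and 30.5 ± 3.06 CPM, with -0.35 (edgeR adjusted p = 2.94e-05), and Ppargc1b 2.60 ± 0.765 and 1.66 ± 0.429 CPM, with -0.66 (edgeR adjusted p = 0.00291). Angptl4 had -0.87 (edgeR adjusted p = 0.0055). For a difference in PA response between batches, 0 of the 8 were called by edgeR, against 0.0565% of all genes, and 0 by DESeq2. There were 0 members at an unadjusted edgeR p below 0.05. This comparison took Ctr and αGlu cells together. In batch 1 and batch 2 alone, the Angptl4 log2 fold change was 3.01 and 3.99 in Ctr cells, and 3.83 and 2.73 in αGlu cells. These opposite shifts offset each other in the joint value of -0.07 (standard error 0.57). A difference within Ctr or within αGlu cells could therefore be missed. Intervals were wide for Ppara (-1.32 to 0.46) and Ppargc1b (-1.06 to 0.47).

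Markers of other cell types moved with PA as well. In Ctr cells, 6 of 7 tested fibroblast and stellate markers were lower in PA, and 4 of 7 in αGlu cells, with summed levels of 72.2 to 423 CPM in Ctr BSA and 8.25 to 47.4 CPM in Ctr PA. Macrophage markers were lower in 6 of 8 in Ctr cells and in 1 of 8 in αGlu cells. The difference between both PA responses was called by edgeR for 0 of 8 macrophage markers and for 0% of all genes. Unequal counts in Ctr and αGlu cells therefore do not show a difference between them, for these markers or for the other lists. Summed macrophage levels were 78.6 to 359 CPM in Ctr BSA (median 141) and 84.1 to 128 CPM in Ctr PA (median 92.3). C1qa alone had medians of 90.96 and 75.7 CPM, so the sums rest largely on this gene. Acinar markers were lower in 3 of 5 in Ctr cells and in 3 of 5 in αGlu cells, with median log2 fold changes of -1.03 and -0.86. Their summed levels varied widely, from 338 to 15843 CPM in Ctr BSA and from 175 to 6963 CPM in Ctr PA. Ductal markers were lower in 2 of 5 in Ctr and in αGlu cells, and delta cell markers in 1 of 2 in both. The PP cell marker Ppy was lower in Ctr cells, with a log2 fold change of -0.50, and was not called in αGlu cells. Of 8 beta cell markers 3 were higher and 3 lower in Ctr cells, and 3 higher and 2 lower in αGlu cells. Of 5 alpha cell markers 1 was lower in Ctr cells and 0 in αGlu cells. Of 7 endothelial and 5 Schwann and glia markers 0 were called by edgeR in either. Of 6 adipocyte markers only Retn and Lipe could be tested, and Adipoq, Plin1, Lep and Cfd had 85, 21, 20 and 2 counts over all libraries. Of the tested pair 1 was lower in Ctr cells and 0 in αGlu cells, and the summed level of the list ran from 4.63 to 9.08 CPM in Ctr BSA and from 5.32 to 7.76 CPM in Ctr PA. Most of that sum was Lipe, with medians of 5.92 CPM in Ctr BSA and 6.38 CPM in Ctr PA. In bulk libraries fewer cells of a type and less RNA per cell cannot be told apart, and the part of these cells in the results was not tested.

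The genes around the receptors were followed through 5 lists. Of 50 listed PPAR target genes 42 were tested, and in the PA response of Ctr cells 24 rose, 2 fell and 16 did not pass the test. The median log2 fold change was 0.42, against 0.01 over all genes. In αGlu cells 26 rose and 0 fell, with a median of 0.38. Over all genes 15.5% rose in Ctr cells and 14.4% in αGlu cells. Because the list was written with earlier results of these data known, it is a description.

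Cpt1a, the carnitine palmitoyltransferase that admits fatty acids to mitochondria, had a log2 fold change of 2.18 (edgeR adjusted p = 8.72e-16) in Ctr cells and 2.25 in αGlu cells. Slc25a20, the carnitine-acylcarnitine carrier, rose from 11.4 ± 1.85 CPM (SD, n = 6) to 30.9 ± 2.53 CPM, and Acadvl, a long-chain acyl-CoA dehydrogenase, from 42.04 ± 4.29 to 75.95 ± 9.17 CPM. Both groups of libraries did not overlap for these genes, in Ctr or in αGlu cells. The 2 genes that fell, Slc27a1 and Plin4, had adjusted p-values of 0.0254 and 0.0439 in edgeR, and neither passed the test in αGlu cells. For both genes the Ctr BSA and Ctr PA libraries overlapped. Plin4 was at 0.780 ± 0.828 CPM in Ctr BSA and 0.291 ± 0.336 CPM in Ctr PA, so its fall rests on few counts.

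Of 19 genes of the ANGPTL family and lipoprotein lipase handling, 15 were tested, and 5 rose and 4 fell in Ctr cells, where 29.98% of all genes were called. Lpl, the lipase that Angptl4 protein inhibits, rose from 185 ± 38.9 to 300.1 ± 53.1 CPM (SD, n = 6), with a log2 fold change of 0.71 (edgeR adjusted p = 1.43e-07). Angptl6 rose from 6.25 ± 1.02 to 14.9 ± 3.70 CPM, and Pcsk6, a proprotein convertase, from 33.1 ± 5.03 to 55.5 ± 7.36 CPM. Among the genes that fell, Furin had -0.47, Pcsk7 -0.26 and Lipg, endothelial lipase, -3.56 on the log2 scale. Lipg was at 0.588 ± 0.280 CPM in Ctr BSA and 0.0418 ± 0.0528 CPM in Ctr PA, so its fold rests on few counts. Furin and Pcsk7 also fell in αGlu cells, as did Lipg (log2 fold change -2.03). In αGlu cells 5 genes of the list rose and 5 fell.

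Corepressors and coactivators of nuclear receptors formed the third list. Of 21 tested, 2 rose and 3 fell in Ctr cells, and 1 rose and 3 fell in αGlu cells. These shares were below the 29.98% and 28.5% of all genes that were called, so the list as a whole did not stand above the background. Among those that fell, the histone acetyltransferases Ep300 (log2 fold change -0.44) and Crebbp (-0.41) were lower in PA in Ctr cells, and both were lower in αGlu cells too. Tbl1xr1, a subunit of corepressor complexes, rose by 0.21 (edgeR adjusted p = 0.0199) and the corepressor Nrip1 by 0.20 (edgeR adjusted p = 0.0359), and only Tbl1xr1 also passed the test in αGlu cells.

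Of 10 tested other receptors that pair with RXR, 3 rose and 4 fell in Ctr cells, and 2 rose and 2 fell in αGlu cells, against 29.98% and 28.5% of all genes called. In Ctr cells 3 of the 10 were called without the batch term or in either batch alone. Nr1h4, the bile acid receptor FXR, rose from 17.6 ± 1.17 to 22.3 ± 1.92 CPM (log2 fold change 0.34, edgeR adjusted p = 3.89e-04), and Vdr and Thrb rose by 0.20 and 0.33. Nr4a1 and Nr4a2, immediate early receptors, fell by 0.84 and 0.43 on the log2 scale, and Thra by 0.24. In αGlu cells Thrb and Thra did not pass the test (adjusted p = 0.40 and 0.0816 in edgeR).

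Of 14 tested factors that PGC-1 coactivates or induces, 1 rose and 3 fell in Ctr cells, and 1 rose and 4 fell in αGlu cells. In Ctr cells this was below the 29.98% of all genes called, and in αGlu cells it was 5 of 14 against 28.5%. Esrrg, an estrogen-related receptor, had a log2 fold change of 0.42 (edgeR adjusted p = 0.0132) in Ctr cells and 0.31 in αGlu cells, where it did not pass the test (edgeR adjusted p = 0.0653). Gabpb1, a subunit of nuclear respiratory factor GABP, had -0.33 and -0.33, Yy1 had -0.20 and -0.27, and Mef2c had -0.74 and -0.98. The median over this list was 0.00 in Ctr cells.

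**Figure D4:**
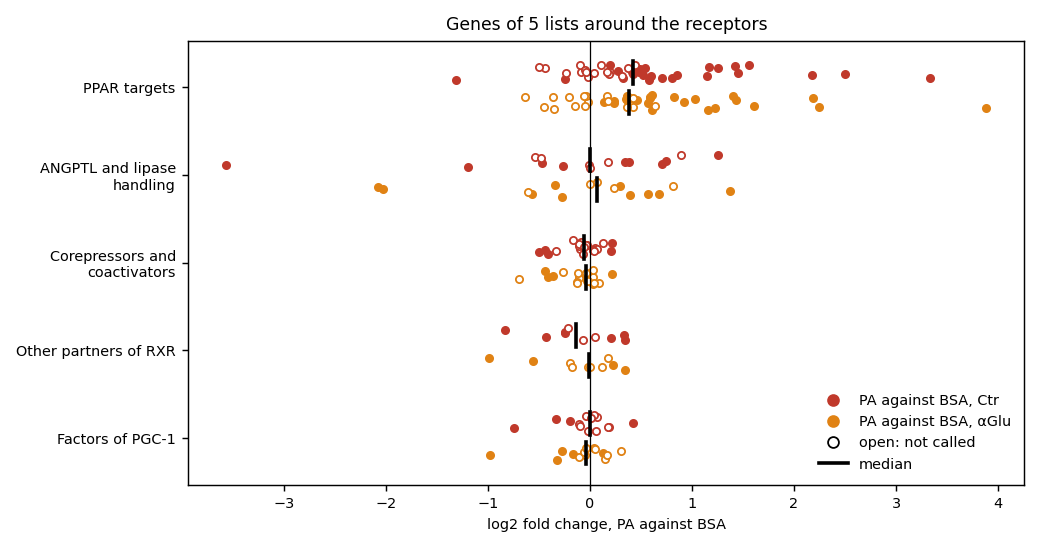
Log2 fold change of PA against BSA for the tested genes of 5 lists, in Ctr cells (red) and αGlu cells (orange), with filled points for an adjusted p below 0.05 and black bars at the median. The PPAR targets lie to the right, with medians of 0.42 and 0.38, and the other lists scatter on both sides of 0.

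The genes most like each member across the 24 libraries, after the mean of each batch was removed from log2 CPM, are a description, since all share the same libraries and the difference between PA and BSA. Angptl4 was closest to Plin2, which coats lipid droplets, Slc25a20 and Cpt1a (Pearson r = 0.96, 0.96 and 0.95). Pparg was closest to Derl1, Sgk2 and Wsb2 (r = 0.95 for each), and Ppargc1a to Lmf1, a maturation factor of lipases, and Ifi30 (r = 0.91 and 0.89). Rxrb was closest to Irf2bp1, Git1 and Cpsf1 (r = 0.90, 0.88 and 0.88), and Rxra to Srf, Serpinf2 and Rnf10 (r = 0.86, 0.84 and 0.84). Ppara exceeded 0.80 with Ric8b alone (r = 0.81), and no gene exceeded it with Ppard or Ppargc1b. Among the members, Angptl4 had r = 0.85 with Pparg and 0.82 with Ppargc1a.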

How the data were processed

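QIAGEN RNA-seq Analysis Portal 5.1 was used by the authors to make 1 table of genes, and per the submitters' processing notes the build was GRCm38. For aligner and annotation release, no name is given in the sources used here. Deposited counts of reads on exons (empty cells read as 0) were tested, and the deposited TPM and RPKM values, scaled per length by the authors, served for levels. The 24 CPM columns were left out. Counts were scaled by TMM in edgeR 4.0.16 (R 4.3.3), filtered by filterByExpr (15916 genes) and fitted by a quasi-likelihood model with group and batch. Genes were called at a Benjamini-Hochberg adjusted p below 0.05 over all genes tested. DESeq2 1.42.0 was an alternative. The script was tested on simulated data. The labels do not say which libraries share a preparation, so groups were compared as unpaired. Intervals are 95%, and counting intervals cover counting error only. Positions follow GENCODE M21. In each list, the 3 genes of smallest p in either direction among those called in the PA response of Ctr cells were named, apart from some genes that are not reported here. The members and lists were chosen with earlier results of these data known.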

Additional observations from a re-analysis of the deposited data

Results flagged for a closer look

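In Ctr PA, the Angptl4 level of library S7 stood apart from the other 5 libraries at 11.7 TMM-scaled CPM, with the next library at 5.90 CPM and the lowest at 2.58 CPM. The gap of 0.634 of the whole range was above the critical value of 0.625 in Dixon's test for 6 libraries. This was 1 of 32 groups of libraries examined, and chance flags about 1 in 20 such groups. Without S7 the log2 fold change of Angptl4 was 3.18 and remained called.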

How the results depend on the processing

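The 8 tested genes kept their calls under DESeq2, upper-quartile scaling, no filter or a stricter filter on low counts, and a fit of the compared groups alone, and each of the 24 libraries could be left out without a change of call. Rxra in the PA response of Ctr cells lost its call without the batch term and in either batch alone, and Ppargc1a in the PA response of αGlu cells lost it in batch 1 alone. The cause was not tested, and a single batch leaves 12 libraries. With the rule of an absolute log2 fold change above 1 and an unadjusted p below 0.05, only Angptl4 was called in Ctr and in αGlu cells (1 gene each, against 4 and 3), and 0 genes between batches (against 4). RPKM in place of TPM put Rxra at rank 1 and Rxrb at rank 2. No paired analysis was possible because each library has its own number in the labels and nothing says which libraries share a preparation, although the groups of a replicate did come from 1 animal or passage. How far pairing would change the calls, that of Rxra included, is therefore unknown.

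Only changes that were not called turned sign. In batch 2 alone this held for Ppard in the PA response of Ctr cells (0.00031), Ppargc1b in that of αGlu cells (-0.11), αGlu against Ctr in BSA for Ppara (0.072), Ppard (0.00062) and Angptl4 (1.03), αGlu against Ctr in PA for Ppard (-0.0061), and the difference between both responses for Ppard (-0.0068) and Pparg (0.011). In batch 1 alone it held for Rxrb in the PA response of αGlu cells (-0.044), αGlu against Ctr in PA for Ppara (-0.087), Pparg (-0.035) and Rxrb (-0.037), and the difference for Angptl4 (0.81), which was 0.059 without the batch term. With each library left out, the changes that crossed 0 ran, in the PA response of αGlu cells, from -0.047 to 0.026 for Ppard, -0.020 to 0.040 for Rxrb and -0.13 to 0.11 for Ppargc1b. For αGlu against Ctr in BSA they ran from -0.30 to 0.056 for Ppara, -0.080 to 0.0085 for Ppard, -0.097 to 0.0094 for Rxrb, -0.10 to 0.060 for Ppargc1a and -0.57 to 0.18 for Angptl4. For αGlu against Ctr in PA they ran from -0.099 to 0.11 for Ppara, -0.028 to 0.045 for Ppard, -0.0065 to 0.058 for Pparg, -0.037 to 0.35 for Ppargc1b and -0.28 to 0.046 for Angptl4. For the difference between both responses they ran from -0.047 to 0.31 for Ppara, -0.066 to 0.024 for Pparg and -0.32 to 0.43 for Angptl4. Between batches Ppara ran from -0.17 to 0.0097, and for the difference in PA response between batches Pparg ran from -0.011 to 0.097, Rxrb from -0.071 to 0.064 and Angptl4 from -0.30 to 0.45.

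The counts of called list genes moved by over 1.5 times in some settings. With the fold rule they were, in Ctr and αGlu cells, 10 and 9 PPAR targets (against 26 and 26) and 3 and 3 genes of ANGPTL and lipase handling (against 9 and 10), with 0 on the other 3 lists. For corepressors and coactivators in αGlu cells (4), the fit of the compared groups alone called 9, batch 2 alone 2, and 7 were called without Ctr BSA library S1 or without Ctr PA library S23. In Ctr cells (5) the compared groups alone and batch 1 alone called 3 each. For RXR partners in Ctr cells (7), no batch term and either batch alone called 3, and the compared groups alone 4. For factors of PGC-1 in Ctr cells (4), no batch term called 0, the compared groups alone 2 and either batch alone 1, and in αGlu cells (5) no filter called 3 and no batch term or either batch alone 1. For ANGPTL and lipase handling in αGlu cells (10), batch 1 alone called 6.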
